A study of Ovis aries with 15 samples.

Results

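Longissimus dorsi muscle of fetal sheep was compared between 100 d and 120 d of development, 2 stages of late gestation represented by 3 arrays each. These 6 arrays were taken by their titles from a series of 15, which also covers 80 d, 150 d (the first days after birth) and 230 d (about 3 months of age). After the control probe sets had been removed, 13751 of 24016 probe sets were kept because their signal reached 50 on at least 3 of the 6 arrays, and 8859 of these carried 1 gene symbol and named 6874 genes. All animals were Dorset/Suffolk/Rambouillet cross-bred sheep, and a different animal was sampled for each array. By the study's methods, both stages held 2 males and 1 female, but which animal was the female is not stated. The stages of 80 d, 150 d and 230 d held 3 males each. RNA was hybridised to an Affymetrix array designed for cattle, and the signals used were made by the authors with MAS5, unlogged and with all arrays brought to one mean. The comparison asks which genes already moved in fetal muscle before birth.

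Skeletal muscle of the fetus grows first by forming fibres from dividing myoblasts, and in sheep most fibres have been laid down by the last part of gestation, after which they enlarge and mature. Maturation exchanges developmental for adult isoforms of the contractile proteins, extends the calcium-handling membranes and builds up the enzymes of glycogen breakdown, glycolysis and mitochondrial respiration. Creatine kinase links the sites of ATP production and use, with CKM in the cytosol and CKMT2 in the mitochondria of striated muscle.

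The 6 arrays were alike in overall level. Median signal was 66.0 ± 3.17 (SD, n = 3) at 100 d and 64.1 ± 4.68 at 120 d, and replicate arrays differed by a median of 0.232 to 0.371 on the log2 scale. CKM and ACTA1, which mark muscle fibres, had signals of 14920 or more on all 6 arrays. One control for RNA quality did separate the stages. For actin, the signal at the 3' end over that at the 5' end was 1.73, 1.27 and 1.60 on the 100 d arrays and 0.933, 1.14 and 1.02 on the 120 d arrays, without overlap (exact permutation test, two-sided, p = 0.1, the smallest that 3 against 3 arrays allow). For GAPDH this quotient was 1.13 ± 0.0397 and 1.14 ± 0.0512 (exact permutation test, p = 0.9, n = 3). The actin quotient moved with every difference described here, and its part in them was not tested. Markers of other cell types mostly overlapped. The summed signal of the 7 erythroid markers kept (of 22 listed) was 15196 to 18940 at 100 d and 17254 to 17798 at 120 d, that of 13 leukocyte markers (of 29) was 1910 to 2243 and 2045 to 2361, and that of 8 cartilage and tendon markers (of 15) was 6096 to 11318 and 3346 to 15857. The sum of 4 nerve and Schwann cell markers (of 19) was 642 to 711 and 802 to 903, without overlap, and of these S100B alone had a positive log2 fold change. The sum of 6 adipocyte markers (of 16) was 452 to 938 and 710 to 1487, with PPARG and AQP7 higher without overlap and ADIPOQ, the hormone adiponectin, at 97.0, 55.8 and 41.3 against 22.9, 9.40 and 91.8. The part of these sums in the results was not tested. In muscle taken as a whole, fewer cells of a type and less RNA per cell cannot be told apart.

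Few probe sets passed the test. With limma fitted to all 15 arrays and a Benjamini-Hochberg adjusted p under 0.01, 7 probe sets rose and 3 fell between 100 d and 120 d, 0.0727% of those tested. The genes named by them were MYH1, CKMT2, COQ8A and ATP2A1, which rose, and NNAT and RGN, which fell. At the wider threshold of 0.05, 24 rose and 11 fell (0.255%). Unadjusted p was under 0.05 for 560 higher and 547 lower probe sets, and the median log2 fold change of all was -0.04. The count of 10 was lower whenever an array of either stage was left out, which also leaves fewer arrays to that stage. It was 2, 6 and 3 without 100 d replicates 1, 2 and 3, and it was 5, 0 and 3 without 120 d replicates 1, 2 and 3. The 6 arrays fitted alone gave 0 at 0.01 and 12 at 0.05, with 1398 probe sets at an unadjusted p under 0.05.

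CKMT2, the mitochondrial creatine kinase of striated muscle, showed the largest rise among genes with a geometric mean signal of 500 or more when each gene was given by its brightest probe set. Its signals were 393, 381 and 306 at 100 d and 1363, 1781 and 1169 at 120 d. The lowest 120 d array lay far above the highest 100 d array, and the log2 fold change was 1.98 ± 0.25 (SE), with an adjusted p of 0.0044 in limma. A second CKMT2 probe set rose by 1.74 (adjusted p = 0.029). The level had been 163.7 ± 42.0 (SD, n = 3) at 80 d and reached 16540 at 150 d, so that the rise of late gestation was a small part of the rise seen by birth. COQ8A encodes a kinase-like protein needed for the synthesis of coenzyme Q, the lipid that carries electrons in the respiratory chain. Its signals were 328, 260 and 246 at 100 d and 729, 1127 and 734 at 120 d. All 3 were higher, and the log2 fold change was 1.61 ± 0.21 (adjusted p = 0.0044, limma). COX7A1, the muscle isoform of a subunit of cytochrome c oxidase, was just outside the threshold. It had signals of 956, 1214 and 1262 and then of 2622, 3681 and 2780, a log2 fold change of 1.40 ± 0.20 (adjusted p = 0.0101). CKMT2 passed in 8 and COQ8A in 9 of the 15 fits that left out 1 array, and both passed 0.05 in all 15.

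ATP2A1, the calcium pump of the sarcoplasmic reticulum of fast fibres, was measured by 2 probe sets. The brighter one gave 3726, 4286 and 3976 at 100 d and 9515, 9680 and 7437 at 120 d, without overlap, and a log2 fold change of 1.14 ± 0.19 (adjusted p = 0.029, limma). The other gave 2527, 2785 and 3248 and then 6162, 6716 and 6288, with a log2 fold change of 1.17 ± 0.16 and an adjusted p of 0.0092. The sizes are alike, and they lie on either side of the threshold with SEs that differ. PLN, the small protein that restrains the related pump ATP2A2, had signals of 234, 208 and 349 and then of 943, 572 and 783. Its log2 fold change was 1.55 ± 0.32 (adjusted p = 0.067), with no overlap. ATP2A2, the pump of slow fibres, was 1.41-fold higher at 120 d, but its probe sets disagreed in direction.

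**Figure D1:**
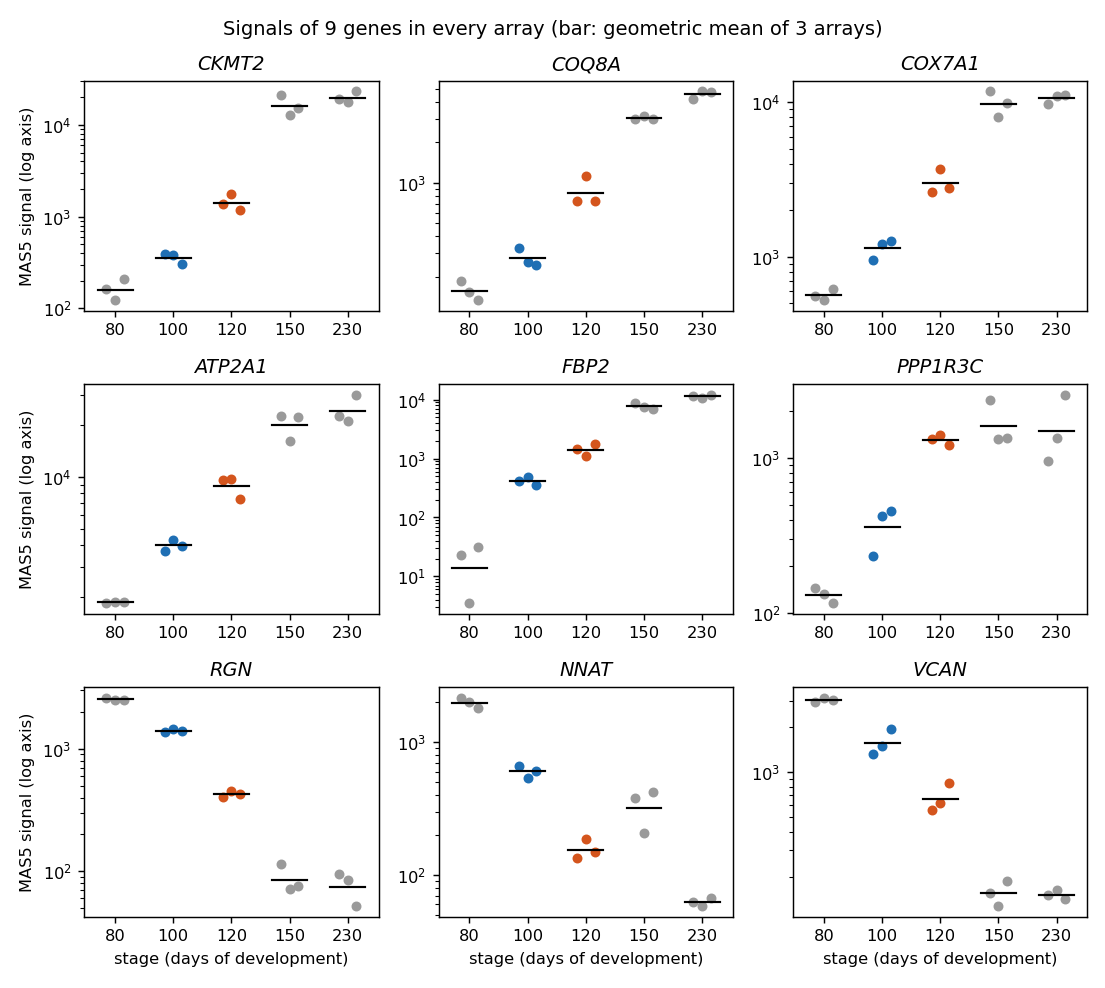
MAS5 signal (log axis) of 9 genes on each of the 15 arrays by stage in days of development, with 100 d in blue, 120 d in orange, the other stages in grey and a bar at the geometric mean of 3 arrays. The 120 d arrays lie above all 100 d arrays for CKMT2, COQ8A, COX7A1, ATP2A1, FBP2 and PPP1R3C and below them for RGN, NNAT and VCAN.

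The largest rises of all probe sets were on those annotated as MYH1, the heavy chain of fast 2X fibres, but the 8 under this name were of 2 kinds. Of these, 6 were higher at 120 d on every array, and 3 of the 6 passed at 0.01. Bt.29854.1.S1_at gave 847, 1592 and 2400 at 100 d and 13140, 16600 and 15210 at 120 d, a log2 fold change of 3.33 ± 0.33 (adjusted p = 0.0013, limma). It had a signal of 100.5 ± 28.3 (SD, n = 3) at 80 d and gave 37540, 32420 and 43890 at 230 d. Bt.12300.1.S1_at rose from 3077, 4228 and 4116 to 12600, 19620 and 15700, by 2.06 ± 0.23 (adjusted p = 0.0021). The brightest of them, Bt.12300.2.S1_at, stood at 9200, 10410 and 8316 and then at 17590, 16720 and 14830, a log2 fold change of 0.82 ± 0.24 that did not pass (adjusted p = 0.27). Of the 15 fits that left out 1 array, Bt.29854.1.S1_at passed 0.01 in 14 and Bt.12300.1.S1_at in 11. The remaining pair of the 8 probe sets followed another course. Bt.4867.2.S1_at gave 7460, 9564 and 13200 at 100 d and 6736, 8722 and 10790 at 120 d, with overlap, and then 388, 801 and 146 at 150 d. Bt.4867.1.A1_at gave 1210, 3387 and 3357 and then 934, 2170 and 2030, also with overlap. Myosin heavy chains are close in sequence, so which chain each of these probe sets measured in sheep is uncertain.

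**Figure D2:**
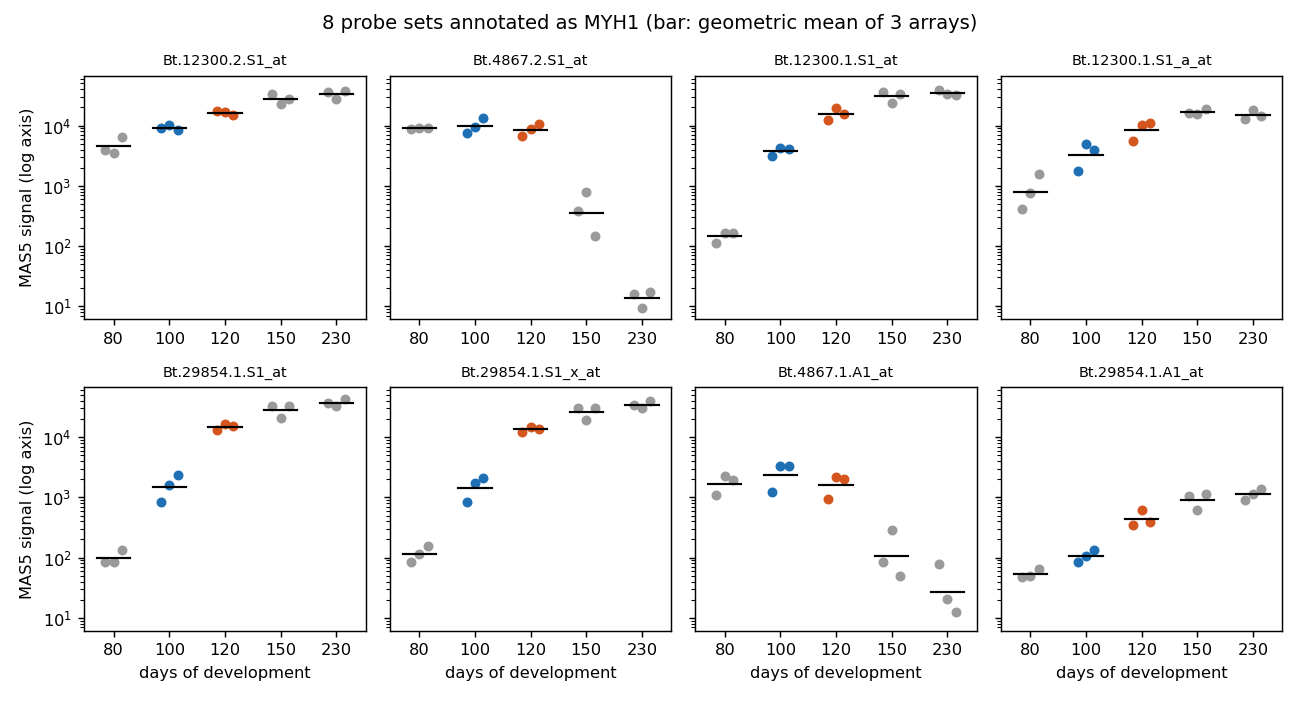
MAS5 signal (log axis) of the 8 probe sets annotated as MYH1, on each array by stage in days of development, with 100 d in blue, 120 d in orange and a bar at the geometric mean of 3 arrays. Of the panels, 6 climb from 80 d to 150 d, and both Bt.4867 panels stay level in the fetus and drop after birth.

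The other myosin chains did not pass the test. MYH8, the perinatal heavy chain, gave 13320, 16030 and 13810 at 100 d and 14560, 14350 and 14160 at 120 d, a log2 fold change of 0.00 ± 0.66. MYH3, the embryonic heavy chain, gave 17050, 12700 and 11600 and then 13160, 9207 and 9989, with overlap. For neither developmental chain did the fit detect a difference, and both were low at 230 d. The postnatal arrays enter the spread from which the errors are taken, and MYH8 gave 872, 4412 and 380 at 150 d. MYH7, the heavy chain of slow fibres, gave 11170, 6817 and 5234 and then 14850, 14230 and 11890, without overlap (log2 fold change 0.89 ± 0.25, adjusted p = 0.25). MYL3, the ventricular and slow light chain, had signals of 105, 113 and 39.5 and then of 561, 254 and 396. Its log2 fold change of 2.30 ± 0.52 had an adjusted p of 0.12. MYL4, the embryonic light chain, was lower without overlap, at 12560, 9430 and 10610 against 5746, 8982 and 7949 (log2 fold change -0.54 ± 0.62, adjusted p = 0.93). For MYL4, adjusted p in limma was 0.5 with the 6 arrays alone and 0.36 with the 9 fetal arrays. Of the 14 myosin chains kept, 4 were higher and 1 was lower without overlap, where 8.03% and 10.5% of all genes were, and with quantile normalization 4 were higher and 3 lower.

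The fall that carried the smallest p among named genes was that of NNAT, or neuronatin, an imprinted gene that encodes a small membrane protein. Its signals were 666, 536 and 609 at 100 d and 134, 187 and 149 at 120 d. The log2 fold change was -1.96 ± 0.24 (adjusted p = 0.0044, limma), and a second probe set gave -2.57. It had been 1991 ± 182 (SD, n = 3) at 80 d and stood at 335 at 150 d. RGN, or regucalcin, a calcium-binding protein that also acts as a lactonase, gave 1359, 1461 and 1408 and then 405, 453 and 431. The groups were far apart, with a log2 fold change of -1.71 ± 0.23 (adjusted p = 0.0081), although a second, dimmer probe set for RGN moved by 0.02. NNAT passed in 9 and RGN in 4 of the 15 fits that left out 1 array, and both passed 0.05 in all 15. The 2 remaining calls have no gene symbol in the annotation. Bt.11622.1.A1_at went from 3752, 2172 and 2436 to 363, 319 and 309, an 8.22-fold fall (adjusted p = 0.0013). Bt.15968.1.S1_at went from 410, 567 and 504 to 1666, 1857 and 1436, a 3.36-fold rise (adjusted p = 0.0013).

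At the wider threshold of 0.05, VCAN and TNC, which encode matrix proteins, were among the falls. VCAN, the large proteoglycan versican, fell on each of its 3 probe sets, and the brightest gave 1326, 1507 and 1960 at 100 d and 560, 623 and 842 at 120 d (log2 fold change -1.25 ± 0.21, adjusted p = 0.029, limma). TNC, the matrix glycoprotein tenascin C, gave 389, 315 and 314 and then 81.6, 138 and 92.7 (-1.73 ± 0.29, adjusted p = 0.029). MAPK8IP1, a scaffold of the JNK pathway, and DCLK1, a microtubule-associated kinase, fell by 2.27 and 1.37 on the log2 scale. Among the rises were ACAT1, the mitochondrial thiolase of ketone and isoleucine breakdown, with 1716, 1574 and 2077 and then 4387, 3506 and 6105 (1.36 ± 0.24, adjusted p = 0.040). ATP1B1, a beta subunit of the sodium pump, RPL3L, the muscle form of ribosomal protein L3, and complement C3 rose by 1.10, 1.14 and 1.40 on the log2 scale. A second, dim C3 probe set gave -0.04, with overlap. ART3, PEBP4, HHATL and C16H1orf21 rose by 1.69, 1.73, 1.37 and 1.34 on that scale, while a second, dim ART3 probe set gave 0.44. A dim probe set of FLOT2 rose at least 1.18-fold, while its brightest gave 0.17 (adjusted p = 0.94). DDO, which oxidises D-aspartate, rose at least 2.65-fold, its 100 d level being just under the signal minimum. Part of these calls was lost when 1 array was left out. Without 120 d replicate 2 the count of 35 was 20, and DCLK1 and ATP1B1 passed 0.05 in 2, RPL3L in 3 and ACAT1 in 5 of the 15 fits that left out 1 array.

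Bright genes, those with a geometric mean signal of 500 or more over the 6 arrays, were also counted whether or not they passed the test. Of 1850 bright genes, 278 (15%) had every 120 d array above every 100 d array and 185 (10%) had every one below. The same shares over all 6874 genes were 8.03% and 10.5%, and over all kept probe sets 7.08% and 9.78%. With array medians set equal the bright counts were 307 and 117, and with quantile normalization they were 213 and 251, so that the balance of higher and lower genes depended on the scaling. Among those without overlap, 103 were at least 1.5-fold higher and 38 at least 1.5-fold lower, and 26 and 10 were past 2-fold. By the brightest probe set of each gene, only CKMT2 and RGN of the bright genes passed at 0.01. The counts without overlap carry no test of their own.

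**Figure D3:**
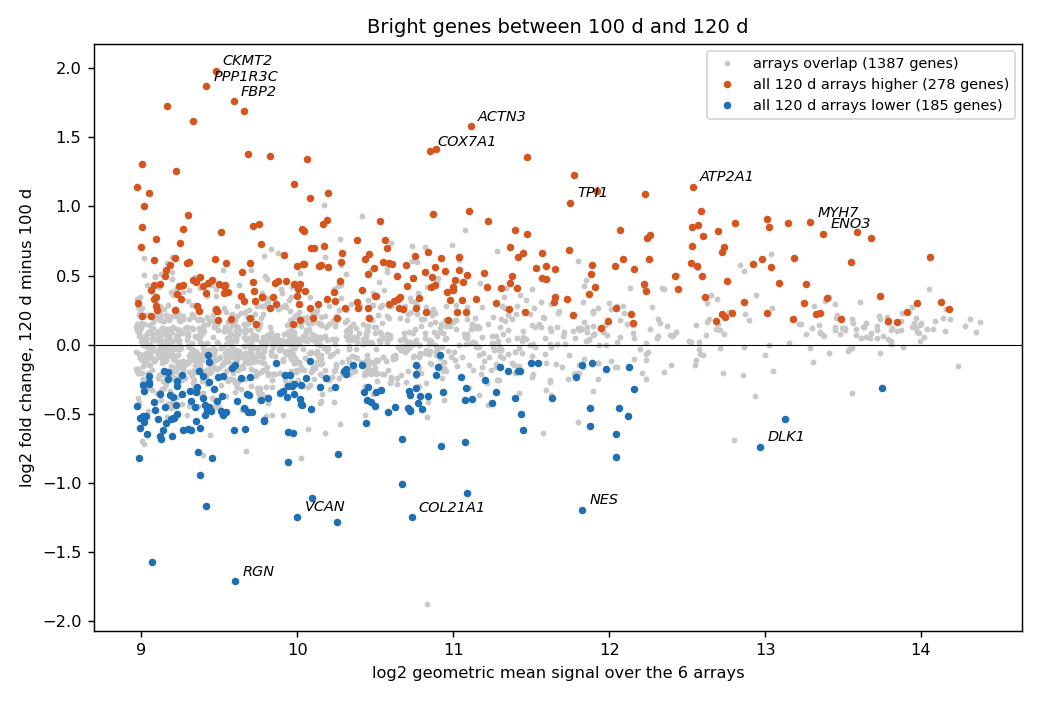
Log2 fold change from 100 d to 120 d against the log2 geometric mean signal of the 6 arrays for 1850 bright genes, 1 point per gene. Genes with all 120 d arrays higher (278, orange) reach 1.98 with CKMT2, those with all lower (185, blue) reach -1.71 with RGN, and genes whose arrays overlap (1387) are grey.

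Among bright genes without overlap, the 12 with the largest rise were CKMT2, PPP1R3C, FBP2, PEBP4, ART3, FGL2, ACTN3, AQP4, COX7A1, BHLHE40, HHATL and ACAT1. PPP1R3C, which brings protein phosphatase 1 to glycogen, gave 234, 425 and 458 at 100 d and 1317, 1404 and 1206 at 120 d, a 3.66-fold difference (log2 SE 0.35, adjusted p = 0.052, limma). By 120 d it was close to its level after birth, 1674 at 150 d. FBP2, the muscle fructose bisphosphatase, gave 416, 492 and 359 and then 1440, 1116 and 1782 (3.39-fold, log2 SE 0.58, adjusted p = 0.34). It had been under the signal minimum on every array at 80 d and went on to 7702 at 150 d. The 80 d signals of FBP2 were 23.0, 3.50 and 31.9, and they enter the spread from which its error is taken. ACTN3, the alpha actinin of fast fibres, gave 769, 1710 and 1593 and then 3581, 4369 and 3585 (adjusted p = 0.12). AQP4, the water channel of the fast fibre membrane, gave 1593, 1241 and 797 and then 2304, 4069 and 3174 (adjusted p = 0.11). A second, dimmer AQP4 probe set gave 0.34 on the log2 scale, with overlap. BHLHE40, a transcriptional repressor that responds to hypoxia, and FGL2, a fibrinogen-like protein, were 2.60-fold and 3.07-fold higher. All 12 were higher without overlap by the way they were chosen.

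Among bright genes without overlap, the 12 with the largest fall were RGN, IFI6, SPP1, COL21A1, VCAN, NES, PDLIM4, HSP90B1, POSTN, MAGED2, SCD5 and ATOX1. COL21A1, a collagen associated with fibrils, gave 2614, 2670 and 2595 at 100 d and 934, 1077 and 1334 at 120 d (2.38-fold lower, log2 SE 0.24, adjusted p = 0.054, limma). NES, the intermediate filament nestin of immature fibres and muscle precursors, gave 8255, 4567 and 4401 and then 4372, 2366 and 1335. The lowest 100 d signal of NES, 4401, and the highest at 120 d, 4372, lay close together. POSTN, the matrix protein periostin, gave 3909, 3001 and 2695 and then 1000, 1265 and 2683, and it too was parted only by the gap between 2695 and 2683. SPP1, or osteopontin, gave 1806, 2289 and 1684 and then 542, 675 and 1310. IFI6, an interferon-induced gene, stood out by its spread at 100 d, with 2119, 433 and 864 against 362, 246 and 336. MAGED2 gave 2862, 2184 and 1990 and then 1080, 1154 and 1228 (2.01-fold lower, adjusted p = 0.070).

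Respiratory chain subunits were higher at 120 d nearly throughout, each by a modest amount. Of 37 subunits of complex I, the NADH dehydrogenase, 34 had a positive log2 fold change, and 21 were higher and 0 lower without overlap. Their median was 0.44, against -0.04 for all genes and 0.03 for bright genes. Without overlap, 8.03% of all genes and 15% of bright genes were higher. NDUFB6 gave 1496, 1867 and 1928 at 100 d and 2864, 3376 and 3579 at 120 d (1.86-fold, adjusted p = 0.064, limma). NDUFA8 gave 4198, 4418 and 4894 and then 8748, 8625 and 7338 (1.83-fold, adjusted p = 0.15). Of 16 subunits of ATP synthase, 16 were positive and 12 were higher without overlap, with a median of 0.47. That count ran from 4 to 14 under the other scalings, while the median stayed positive in each. None of the complex I or ATP synthase subunits passed at 0.05. Averaged over the complex I subunits, the 100 d arrays lay at -0.19, -0.20 and -0.25 and the 120 d arrays at 0.29, 0.32 and 0.03 around each gene's mean of 6 arrays on the log2 scale. The 120 d replicate 3 stood nearest to the 100 d arrays, and it did so for ATP synthase as well, at 0.02.

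Among the subunits of complexes II to IV and cytochrome c, 11 of 24 were higher and 2 lower without overlap, and the median was 0.57. The shares over all genes were 8.03% and 10.5%. Without 120 d replicate 3 the 11 became 18, and in every list leaving out an array can only add members without overlap. COX7A1, COX6A2 and COX8B, which are isoforms of heart and skeletal muscle, were among the higher ones, though a second COX8B probe set gave -0.30 on the log2 scale, with overlap. COX6A2 gave 1108, 815 and 1419 at 100 d and 3274, 1597 and 1571 at 120 d. COX7A2 and COX6A1, the isoforms found in most other tissues, were the 2 lower ones. COX7A2 gave 1448, 1645 and 1723 and then 1176, 1390 and 1098. COX6A1 gave 3153, 2807 and 2438 and then 2260, 2201 and 2122, but another of its probe sets gave 0.91 on the log2 scale. Of these subunits COX7A1 alone passed at 0.05, and the difference between isoforms was not tested.

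The pathways that feed the respiratory chain differed in how many of their genes were higher. In the TCA cycle with pyruvate dehydrogenase, 13 of 22 genes were higher and 0 lower without overlap (median log2 fold change 0.57). None passed at 0.05 in limma. Over all genes, 8.03% were higher and 10.5% lower without overlap. CS, or citrate synthase, gave 1863, 1636 and 1223 at 100 d and 2394, 2584 and 1949 at 120 d. MDH2, the mitochondrial malate dehydrogenase, gave 4592, 3453 and 3214 and then 7188, 6446 and 5497, and MPC2, a subunit of the pyruvate carrier, gave 823, 706 and 859 and then 1304, 1524 and 1385. PDK4, the kinase that switches pyruvate dehydrogenase off, gave 136, 134 and 98.6 and then 252, 179 and 216. It stood at 4676 at 150 d, so this early difference is a small one. In fatty acid uptake and oxidation 8 of 25 were higher and 0 lower (median 0.35), among them ACADVL, the very long chain acyl-CoA dehydrogenase, with 511, 372 and 257 and then 630, 887 and 709. CPT1B, the muscle carnitine palmitoyltransferase, was 1.26-fold higher, and FABP3, the fatty acid-binding protein of heart and muscle, overlapped between the stages. In the breakdown of branched-chain amino acids 3 of 16 were higher and 1 was lower, with a median of 0.21 that was 0.14 without 100 d replicate 2 or 3. The 3 became 5 without 100 d replicate 3 and 6 without 120 d replicate 1.

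Glycolysis had a median of 0.64, with 12 of 25 genes higher and 0 lower without overlap, beside 8.03% and 10.5% of all genes. Without 120 d replicate 1 the median was 0.44. TPI1, the triose phosphate isomerase, gave 2319, 2508 and 2406 at 100 d and 5033, 5738 and 4113 at 120 d (2.04-fold, log2 SE 0.19, adjusted p = 0.052, limma). LDHA, the lactate dehydrogenase of muscle, gave 4514, 5914 and 5520 and then 9520, 11630 and 8279 (adjusted p = 0.12), but its other probe sets moved slightly the other way. PGAM2 and ENO3, the muscle phosphoglycerate mutase and enolase, were 1.80-fold and 1.74-fold higher. GPD1, the cytosolic glycerol phosphate dehydrogenase, gave 335, 376 and 458 and then 832, 1080 and 876 (2.39-fold, adjusted p = 0.051). Of 8 genes of glycogen metabolism, 4 were higher without overlap. PYGM, the muscle glycogen phosphorylase, gave 3161, 3659 and 2891 and then 5606, 5950 and 5586 (1.77-fold, adjusted p = 0.24). In the phosphagen group, CKM gave 16660, 16650 and 14920 and then 23140, 19600 and 17400, a 1.24-fold difference beside the 3.95-fold of CKMT2. CKB, the brain-type creatine kinase, was lower without overlap, at 293, 254 and 203 against 165, 91.4 and 108.

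**Figure D4:**
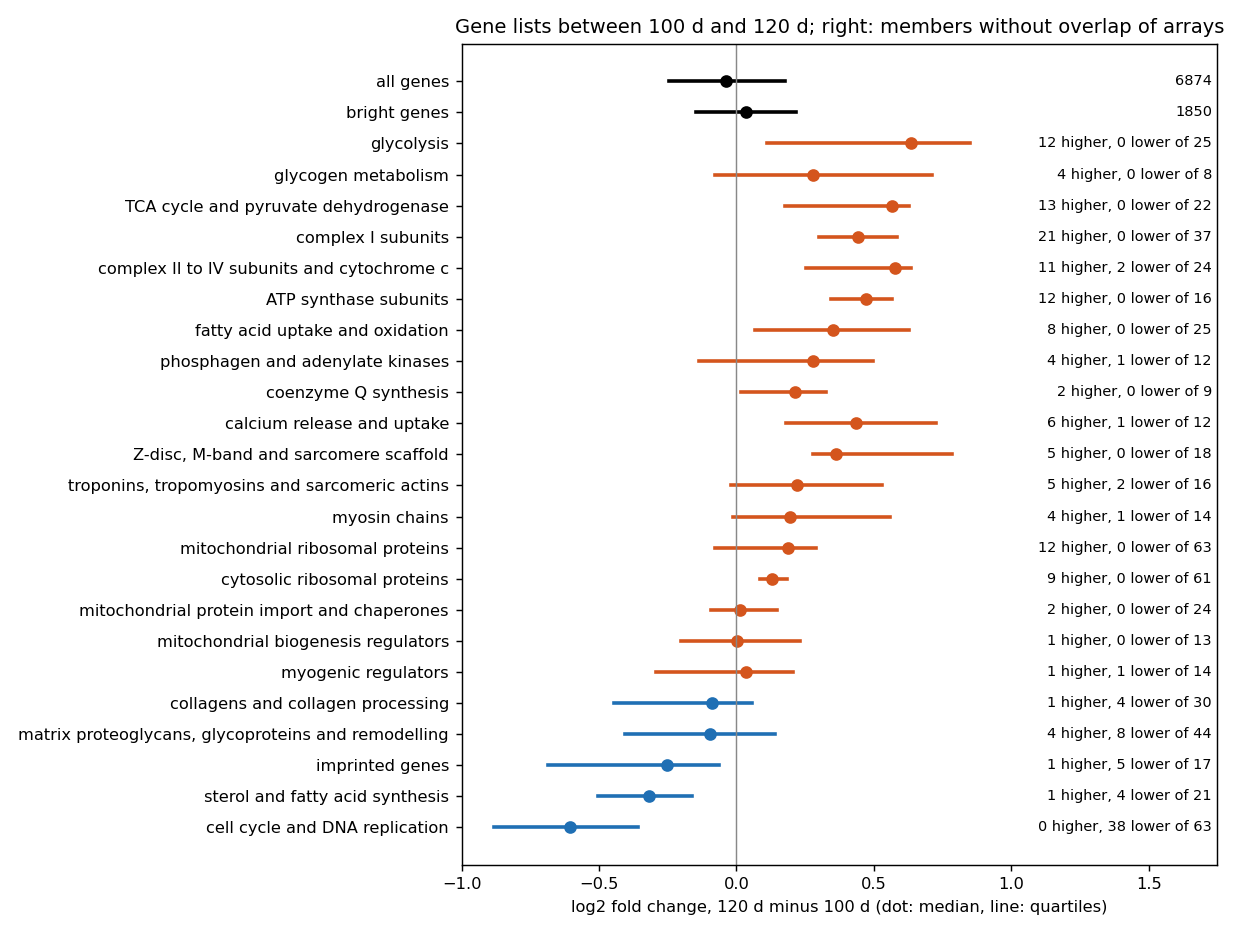
Median (dot) and quartiles (line) of the log2 fold change from 100 d to 120 d for the members of 23 gene lists, with all genes and bright genes in black, and at right the number of members whose arrays lay all higher or all lower at 120 d. The lists of glycolysis, the TCA cycle, complex I, complexes II to IV and ATP synthase have medians of 0.44 to 0.64, and cell cycle genes lie at -0.60.

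Genes of mitochondrial import and of its regulation had medians near 0. Of 24 genes of mitochondrial protein import and chaperones, 2 were higher and 0 lower without overlap, and the median was 0.01. These 2 are a share close to the 8.03% of all genes. HSPD1, the mitochondrial chaperonin, gave 3933, 4156 and 4552 at 100 d and 4796, 4176 and 3870 at 120 d. Of 13 regulators of mitochondrial biogenesis, PPARGC1A alone, a coactivator of oxidative genes, was higher without overlap, and the median was 0.00. PPARGC1A gave 339, 341 and 422 and then 478, 456 and 526 (1.33-fold, adjusted p = 0.70, limma). The 63 mitochondrial ribosomal proteins had 12 higher, 0 lower and a median of 0.19, and the 61 cytosolic ones had 9 higher, 0 lower and 0.13. The 9 are a share close to the 15% of bright genes, where all genes had 8.03%. Without 100 d replicate 1 the 9 cytosolic ones became 33. The median of the cytosolic ones turned to -0.04 under another scaling, and those of import genes and of biogenesis regulators also changed sign in some fits.

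**Figure D5:**
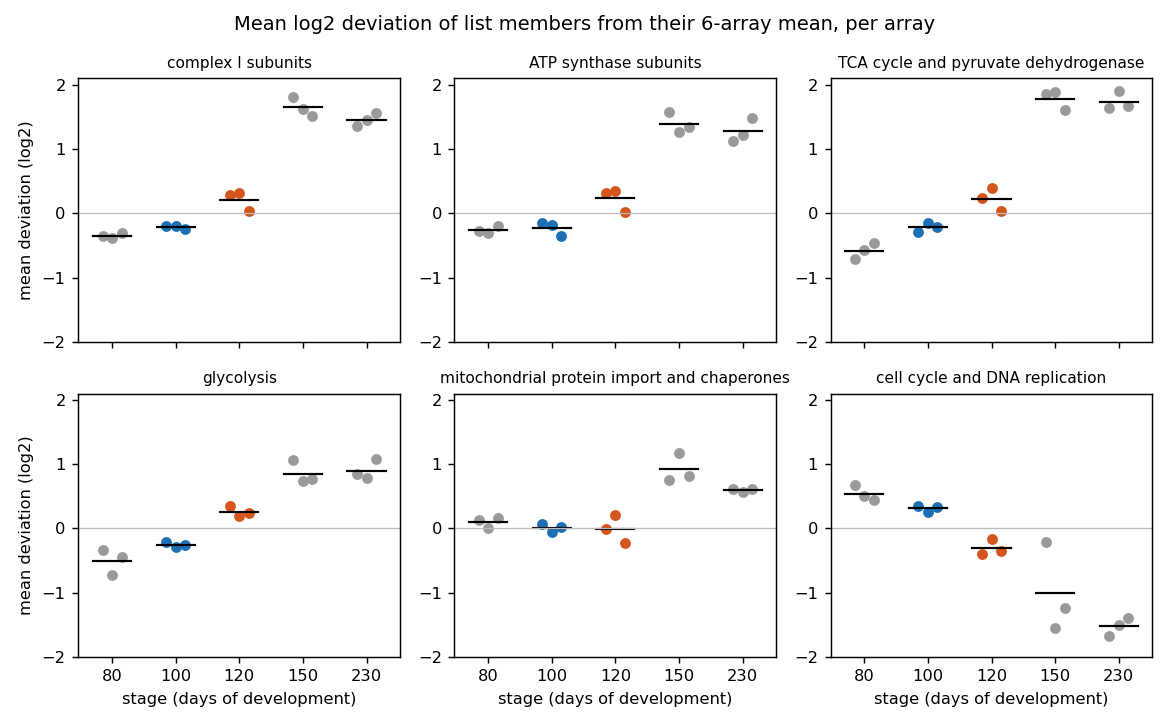
Mean deviation (log2) of a list's members from each member's mean over the 6 arrays of 100 d (blue) and 120 d (orange), per array and by stage in days of development, with a bar at the mean of 3 arrays. The lists of complex I, ATP synthase, the TCA cycle and glycolysis are higher on every 120 d array than on any 100 d array and higher again after birth, import genes overlap between 100 d and 120 d, and cell cycle genes are lower on every 120 d array.

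Transcripts of the contractile apparatus differed from one group to another. Of 18 genes of the Z-disc, M-band and scaffold, 5 were higher and 0 lower without overlap (median log2 fold change 0.36), where 8.03% of all genes were higher, and none passed at 0.05 in limma. That count ran from 4 to 9 under the other scalings, and it was 9 without 100 d replicate 1 and 12 without 120 d replicate 3, with a median of 0.63 in the latter. TCAP, which caps titin at the Z-disc, gave 4975, 2646 and 2692 at 100 d and 7314, 6464 and 7230 at 120 d, and MYOZ1, the myozenin of fast fibres, was 1.84-fold higher. Of 12 genes of calcium release and uptake, 6 were higher and 1 was lower (median 0.43), and the 6 ran from 4 to 9 under the other scalings. Of 16 troponins, tropomyosins, sarcomeric actins and partners, 5 were higher and 2 lower, and without 100 d replicate 1 the 5 became 9. TMOD4, the tropomodulin of skeletal muscle, gave 1622, 2891 and 2566 and then 5343, 5023 and 5778 (2.34-fold, log2 SE 0.25, adjusted p = 0.072, limma). TNNT1, the slow troponin T, gave 7062, 3886 and 3126 and then 9054, 9150 and 7758. ACTA1, the skeletal actin, gave 25940, 19350 and 16740 and then 18910, 19920 and 16190, with overlap. TNNT2, the cardiac troponin T expressed in fetal muscle, was lower, at 127, 151 and 156 against 113, 62.9 and 106.

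Cell cycle genes were lower at 120 d as a group. Of 63 genes of the cell cycle and DNA replication that were kept, 38 were lower and 0 higher without overlap, and 4 had a positive log2 fold change. The median was -0.60, it stayed between -0.61 and -0.56 under the other scalings and none of the 63 passed at 0.05 in limma. Over all genes, 10.5% were lower without overlap. CCNB2, a mitotic cyclin, gave 328, 246 and 300 at 100 d and 98.4, 105 and 121 at 120 d. CCNB1, the other B-type cyclin, gave 203, 199 and 204 and then 119, 129 and 110. With the 9 fetal arrays alone, adjusted p in limma was 0.014 for CCNB2 and 0.081 for CCNB1. Over all 15 arrays it was 0.70 and 0.89. PCNA, the clamp of DNA polymerase, gave 990, 1001 and 1237 and then 741, 804 and 652. Most of these genes are dim, so a log2 value is uncertain for them. CDK4, the kinase of the G1 phase, was 1.28-fold lower. CDKN1A, an inhibitor of the cell cycle, was also lower, at 754, 861 and 842 against 544, 194 and 219 (adjusted p = 0.28). Of 14 myogenic regulators, 1 was higher and 1 was lower without overlap, and MYOG, the myogenin of differentiating myoblasts, gave 1512, 746 and 531 and then 935, 599 and 628. Over the whole course, the mean deviation of the 63 genes was 0.67, 0.51 and 0.45 on the 80 d arrays. The 150 d replicate 1 stood apart at -0.22 from the other 150 d arrays at -1.55 and -1.24. In the fit over all 15 arrays, the 150 d arrays enter the spread from which the errors are taken.

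Imprinted genes were mostly lower. Of 17 kept, 5 were lower and 1 was higher without overlap, beside 10.5% and 8.03% of all genes. Their median log2 fold change was -0.25, and 3 were positive. The count of lower ones ran from 4 to 10 under the other scalings and was 8 without 100 d replicate 1 or 120 d replicate 3. DLK1, a membrane protein that favours fetal muscle growth, gave 13090, 9710 and 8699 at 100 d and 5726, 5838 and 7135 at 120 d (1.67-fold lower, adjusted p = 0.43, limma). MEST gave 5969, 5764 and 5103 and then 2909, 2979 and 3710 (1.76-fold lower, adjusted p = 0.15), but its other probe sets did not all share that direction. MEG3, a non-coding RNA of the DLK1 locus, was 1.25-fold lower without overlap by its brightest probe set. Further MEG3 probe sets gave -0.93, -0.90 and -1.28 on the log2 scale without overlap, and another gave 0.14 with overlap. IGF2, the fetal growth factor, gave 15490, 13850 and 12640 and then 17440, 12240 and 11250, with overlap. PEG10 had the largest fall in mean log2 signal of any bright gene by its brightest probe set, but its arrays overlapped widely, at 758, 7551 and 7454 against 369, 442 and 5258. PEG10 was chosen after its values were seen.

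Of 30 genes of collagens and their processing, 4 were lower and 1 was higher without overlap, beside 10.5% and 8.03% of all genes. Without 100 d replicate 3 the 4 became 9, though leaving out an array can only raise such a count. COL1A1 and COL3A1, the main fibrillar collagens, gave 14240, 14970 and 9980 against 9604, 15530 and 15670 and 25840, 18980 and 16990 against 24430, 20720 and 19830. Of 44 genes of proteoglycans, glycoproteins and remodelling, 8 were lower and 4 higher, and these became 16 without 100 d replicate 3 and 8 without 100 d replicate 1. Of 21 genes of sterol and fatty acid synthesis, 4 were lower and 1 was higher, with a median of -0.32. That median was -0.17 without 100 d replicate 1 and -0.20 without 120 d replicate 3, and the 4 became 8 without 100 d replicate 3 or 120 d replicate 1. SQLE, the squalene epoxidase, gave 323, 517 and 449 at 100 d and 172, 270 and 104 at 120 d (2.50-fold lower, adjusted p = 0.14, limma). INSIG1, which holds back the processing of the sterol regulators, gave 435, 627 and 559 and then 309, 286 and 344. VEGFA, the angiogenic growth factor, was higher, with 1946, 3140 and 3006 and then 5888, 6078 and 5194 (2.16-fold, adjusted p = 0.062), while 1 of 13 endothelial markers was higher and 0 lower.

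The study sorted genes into clusters by interval on these same arrays, so its clusters for this interval are no independent evidence. Of 34 kept genes (of 59 on the array) of its cluster that is up between 100 d and 120 d and flat elsewhere, 21 were higher and 0 lower without overlap, with a median log2 fold change of 1.07. Of 39 kept genes (of 51) of the cluster that is down in the interval, 20 were lower and 3 higher, with a median of -0.77. The shares over all genes were 8.03% higher and 10.5% lower without overlap, and the 3 higher ones are a share close to the former.

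The change of this interval was set against the one before it, from 80 d to 100 d, in the same limma fit. No probe set passed (0 of 13751 at 0.01, 0.00%, and 0 at 0.05), the lowest adjusted p was 0.26 and 522 had an unadjusted p under 0.05. The 2 intervals share the 100 d arrays, so their values are given side by side only. TMOD4 had a log2 fold change of 2.81 before 100 d and 1.23 after it, and ART3 had 2.47 and 1.69. CKMT2 had 1.16 and 1.98, COQ8A had 0.82 and 1.61, and GPD1 had 0.14 and 1.26. From 120 d to 150 d the values were 3.52 for CKMT2, 1.84 for COQ8A and 2.66 for GPD1, while ACAT1 had -0.06 and PPP1R3C had 0.30. PPP1R3C and ACAT1 thus stood near their newborn level at 120 d, and CKMT2 and GPD1 well below it.

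Arrays that were not part of the comparison showed the same direction for most of the bright genes without overlap. Of the 278 that were higher at 120 d, 215 (77.3%) had every 150 d array above every 80 d array and 17 (6.12%) had every one below, against 33.1% and 34.3% of all bright genes. Of the 185 that were lower, 140 (75.7%) were below and 7 (3.78%) were above. The actin quotient also parted these arrays, with 2.21, 1.66 and 1.78 at 80 d. At 150 d it was 0.953, 0.852 and 0.924, and its part in these counts was not tested. AQP4 and BHLHE40 had higher means at 120 d than at 150 d, with 3182 ± 883 and 1340 ± 235 (SD, n = 3) at 120 d and 2174 and 802 at 150 d.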

How the data were processed

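The values are the MAS5 intensities deposited by the authors, on a linear scale. By the study's methods MAS5 subtracted background, summarised each probe set and set the mean of every array to 200 (MAS5 version: not given in the sources used here). The stage of each sample is that of its title. Control probe sets (112) were removed, signals under 0.1 were set to 0.1 (2 values), log2 was taken and those reaching 50 on at least 3 of the 6 arrays were kept. Genes were named from the platform annotation of the cattle array, where 13292 probe sets had 1 symbol, 86 several and 10638 none, and sheep transcripts that differ from the cattle probes may read low. Where several probe sets named a gene, the one brightest on average (log2, 6 arrays) stands for it, and levels were not compared between probe sets.

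The contrast was fitted by lmFit and eBayes (limma 3.58.1, R 4.3.3) over all 15 arrays with 10 residual degrees of freedom, with the Benjamini-Hochberg adjustment over the kept probe sets at 0.01. Postnatal arrays thus also set the spread. Precision is limited by the number of arrays. Where a geometric mean was under 50, folds are bounds against 50. Two-sided exact permutation tests were used for array quality. Gene lists are described by counts and medians, without a test. The rule for named genes took those past the test, the 12 bright genes with the largest rise and fall without overlap, up to 4 members per list and a set fixed for their role. Members and lists were chosen with earlier results of these data known. Genes of that set that were not kept (HES6, SLC2A4) or have no probe set with 1 symbol (ESRRA, PAX7, MKI67, MYH2) are not reported. The alternatives were 4 scalings, an offset, other filters, samples, thresholds and fits, a block and each array left out. The fit was tested on simulated data. Python 3.11.15 and matplotlib 3.10.9 made the figures.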

Additional observations from a re-analysis of the deposited data

How the results depend on the processing

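The count of 10 probe sets past the test (7 higher and 3 lower) was the value that depended most on the processing. It was 21 (13 and 8) with an offset of 16, 3 (2 and 1) without a filter, 20 (14 and 6) with a stricter filter, 0 with the 6 arrays alone (0 and 0), 38 (28 and 10) with the trend and robust options, 35 (24 and 11) at 0.05 and 1198 (568 and 630) with a nested F over 4 intervals, which draws on the changes of all intervals. With array medians set equal it was 15 (12 and 3), with quantile normalization 14 (11 and 3) and with the 9 fetal arrays 10 (5 and 5). Leaving out 1 array gave 0 to 13 in all, with 0 to 9 higher and 0 to 4 lower. The cause of these differences was not tested.

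The replicate numbers pair nothing, since the animals differ, and deviations of arrays with the same number correlated at 0.24, -0.04 and 0.17. A fit with the replicate number as a block called 6 probe sets (5 higher and 1 lower).

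The 278 bright genes higher without overlap became 213 to 307 under the other scalings and 327 to 435 when 1 array was left out, which can only add such genes. The 185 lower ones became 117 with array medians set equal, 417 with a bright limit of 200 and 87 with a limit of 1000, and 215 to 322 without 1 array. Among 180 named genes and probe sets, 4731 of 4851 alternative values counted as unchanged, 77 no longer passed, 41 newly passed and 2 moved. Unchanged values kept their side of the threshold, but not always their direction. A reversed sign was also counted as unchanged where neither value passed and the shift was under 1 SE. ACTA1, for example, ran from -0.294 to 0.0218 in the fits that left out 1 array. Genes near the signal minimum, cell cycle genes among them, have uncertain folds.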

Other observations

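Of 31 heat shock proteins and chaperones, 6 were lower and 2 higher without overlap, beside 10.5% and 8.03% of all genes, and none passed the test at 0.05. The median of -0.20 on the log2 scale became 0.10 without 120 d replicate 3, and the 6 became 14 without 120 d replicate 1. HSP90B1, which folds secreted and membrane proteins, gave 1075, 2412 and 1596 at 100 d and 781, 960 and 547 at 120 d (2.16-fold lower, adjusted p = 0.52 in limma). CANX and CALR, the lectin chaperones calnexin and calreticulin, gave 980, 1395 and 1339 against 721, 720 and 953, and 2359, 1806 and 1648 against 1542, 1632 and 1309. These 3 did not overlap, but a second, dim CANX probe set did, at -0.24 on the log2 scale.

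Of 32 genes of IGF, myostatin and BMP signalling, 3 were higher and 4 lower without overlap, shares close to the 8.03% and 10.5% of all genes, and none passed the test at 0.05. The 3 became 5 without 100 d replicate 3 and 6 without 120 d replicate 1. Among them are binding proteins of the insulin-like growth factors. IGFBP2 gave 318, 245 and 318 at 100 d and 105, 148 and 138 at 120 d (2.27-fold lower, adjusted p = 0.39 in limma). IGFBP3 gave 745, 889 and 980 and then 1289, 1623 and 1340 (1.63-fold higher, adjusted p = 0.25). IGFBP5 gave 42.7, 44.4 and 26.7 and then 85.6, 62.1 and 143, at least 1.83-fold higher against the signal minimum (adjusted p = 0.31). IGFBP7 was 1.13-fold higher without overlap, and IGFBP4 and IGFBP6 overlapped. At the neuromuscular junction, CHRND, a subunit of the acetylcholine receptor, gave 200, 232 and 226 and then 166, 123 and 128, and KCNJ2, an inward rectifier potassium channel, gave 117, 229 and 223 and then 246, 398 and 313. Of 13 genes of atrophy ligases and FOXO targets, 4 were higher and 0 lower without overlap. Of these, BNIP3 gave 501, 327 and 449 and then 698, 542 and 951, and MAP1LC3B gave 1066, 1278 and 1191 and then 1634, 1442 and 2003, with adjusted p of 0.43 and 0.41 in limma. Neither passed the test, and a second probe set of each overlapped between the stages.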
